A study of Caenorhabditis elegans with 4 samples.

Results

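LAG-1 peaks in the centres of 4 Caenorhabditis elegans autosomes are described here. A peak summit counted as a member when it lay, in ce10 positions, between 4880000 and 12020000 on chromosome II, 3720000 and 10340000 on III, 3900000 and 12970000 on IV, or 5900000 and 16550000 on V. The window from 6086914 to 6123959 on IV was left out. These windows held 400 of 1221 peaks (32.8%) in replicate 1, 381 of 1148 (33.2%) in replicate 2 and 242 of 799 (30.3%) in replicate 3. Peaks of the 3 replicates that overlapped by at least 1 bp were merged, which gave 584 regions out of 1776 over all chromosomes. No peak interval reached across a border of the windows, and every member was used. The border on III lay close to strong signal. The nearest peak outside its left border, 89.4 kb away in replicate 2, had a fold over input of 50.9, and the nearest peak inside, 50.5 kb away in the same replicate, had a fold of 5.20.

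The series maps LAG-1 by ChIP-seq (sequencing of the DNA recovered by chromatin immunoprecipitation) in worms of the strain Bristol, synchronized by bleaching and fed on NA22 bacteria until the L4 larval stage. It holds 3 ChIP samples described as independent biological replicates and 1 input sample, DNA from the same kind of worms without antibody, which served as the control of all 3. The labels call the cell type germline, while their protocol speaks of lysates of animals, so the share of signal from other tissues was not tested. The files name the ChIP libraries only by a tag that does not mention LAG-1, and the antibody target therefore rests on the labels. No allele, treatment or second stage is given.

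LAG-1 is the CSL transcription factor of the worm, the DNA-binding protein that meets the released intracellular part of a Notch receptor in the nucleus. Without Notch, CSL proteins can hold target genes down, and together with the receptor fragment and a coactivator they turn them on. In the worm germline the receptor GLP-1 acts through LAG-1 to keep stem cells from entering meiosis. The centres of worm autosomes are rich in conserved and housekeeping genes and recombine little, whereas the arms hold more repeats and recombine more. Which genes lie at the regions below, and their sequences, were not analysed here.

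The libraries differed in usable depth and in the fragment length used by the peak caller. The 3 ChIP libraries held 3475891 to 5441972 tags, of which 509715 to 1305672 were left once each position was counted once, a share of 9.37% to 37.6%. Replicate 2 had the fewest kept tags and replicate 3 the most. The same input was sampled down to the size of each ChIP library. The fragment length was 77, 125 and 55 bp in replicates 1, 2 and 3, with tags of 50 bp. The narrowest peaks of the lists were 77, 125 and 55 bp wide. This length also limits the number of tags stacked at a summit, the pileup, to a ceiling of 154, 250 and 110 tags. Peak widths, covered shares and pileups are therefore not on a common scale between replicates. Fold is the authors' value throughout, the pileup over the local input background with 1 added to each. The pileup ceiling therefore also limits the fold, and folds are not fully on a common scale between replicates either. An interval with several summits is given by its summit of highest fold.

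Of the 584 centre regions, 103 (17.6%) had a peak in every replicate, 100 (17.1%) in 2 and 381 (65.2%) in 1. Over all chromosomes 18.0% of the merged regions had a peak in every list, and in the arms of the same chromosomes 18.2%, so the centre share is near that background. At least 2 replicates had a peak in 203 centre regions (34.8%), against 33.8% over all chromosomes. The replicates did not contribute evenly. Of the regions found in exactly 2 lists, 67 had peaks in replicates 1 and 2, 19 in replicates 1 and 3, and 14 in replicates 2 and 3. These were 11.5%, 3.25% and 2.40% of the centre regions, against 9.68%, 3.66% and 2.53% over all chromosomes. The unevenness was thus near that of the whole series, and replicate 3 also had the shortest list. Leaving out replicate 3, 169 regions had a peak in both other lists. Merging at 50% reciprocal overlap in place of 1 bp left 38 shared regions. The narrowest peaks were 125 bp wide in replicate 2 and 55 bp in replicate 3. Such a pair cannot overlap by 50% of both, so this rule is stricter where fragment lengths differ.

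The 103 shared regions were between 166 and 3846 bp wide, with a median of 464 bp. Their folds had medians of 5.20, 5.5 and 5.01 in replicates 1, 2 and 3, and ranged from 2.50 to 39.3, 2.25 to 33.8 and 2.33 to 40.5. Median pileups at their summits were 23, 24 and 23 tags. A few regions stood far above these medians in every replicate. The 20 leading regions, ordered by the largest of their 3 ranks by fold, had mean folds from 7.60 to 37.9 and were spread over the chromosomes, with 6 each on III and V and 4 each on II and IV.

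**Figure D1:**
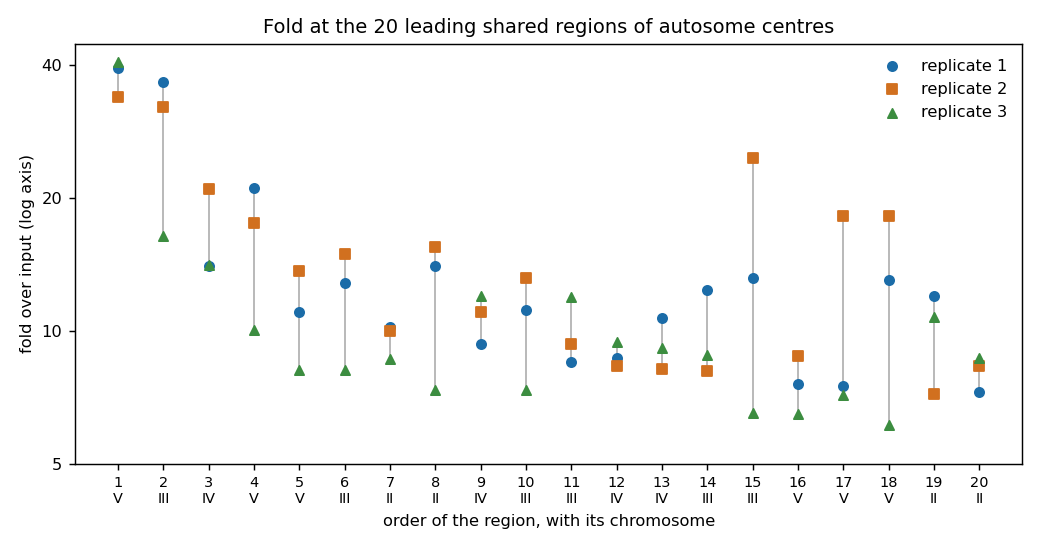
Fold over input (log axis) of the 20 leading shared regions of autosome centres, ordered by the largest of their 3 ranks, with the chromosome under each; each point is 1 replicate and the grey line joins the lowest and highest. The first region lies between 33.8 and 40.5 in all replicates, while region 15 spreads from 6.50 to 24.6.

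The region on V from 11769875 to 11770872 ranked first in each replicate. Its folds were 39.3, 33.8 and 40.5 in replicates 1, 2 and 3, a mean of 37.9 ± 3.57 (SD, n = 3), and it was the only centre region with all folds above 20. The pileups were 117, 202 and 93 tags (95% Poisson intervals 96.8 to 140.2, 175.1 to 231.9 and 75.1 to 113.9, which cover counting error only). The pileups reached 76.0%, 80.8% and 84.5% of the ceiling of each library. The intervals take no account of this ceiling, and the upper limit in replicate 3 lies above the 110 tags possible there. The input background under the summits was 2, 5 and 1.32 tags, so the folds rest on few input tags. The 3 summits, at 11770300, 11770295 and 11770298, lay within 5 bp. No other shared region lay within 10 kb of it.

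The region on III from 9793379 to 9794166 ranked second in each replicate. Its folds were 36.5, 32.0 and 16.3, a mean of 28.3 ± 10.6 (SD, n = 3), each below the fold of the first region in the same replicate. The ranges of these leading regions overlapped, since the highest fold on III exceeded the lowest on V. Its pileups were 72, 127 and 48 tags over input backgrounds of 1, 3 and 2 tags, and its summits lay within 23 bp.

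The next region, on IV from 11070861 to 11073454, had another shape. It was 2594 bp wide and held 34 summits over the 3 lists. Its folds were 14.0, 20.9 and 14.1, with pileups of 111, 153 and 95 tags, as high as those of the leading region on V in replicate 3. The input background was also high there, at 7.01, 6.38 and 5.83 tags. The best summits of the replicates were 1051 bp apart. It was the strongest of 4 shared regions in 4712 bp, and the other folds in this run lay between 2.78 and 9.76.

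The region on V from 13657284 to 13657868 came next, with folds of 21, 17.6 and 10.01, a mean of 16.2 ± 5.62 (SD, n = 3). Its input background was 1, 0.708 and 0.798 tags, close to the lowest level that the peak caller allows. Pileups were 41, 29 and 17 tags. Replicate 3 gave the lowest value, and the spread between replicates reached 2.1-fold.

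After these the leading regions ran closer together than their replicates agreed. Regions 5 to 20 had mean folds between 7.60 and 14.8. Over all 20 the highest fold of a region was between 1.13 and 3.78 times its lowest, with a median of 1.59. Their order beyond the first regions is therefore within the spread between replicates. Replicate 3 gave the lowest fold in 11 of the 20, and replicate 2 the highest in 9. Replicate 3 also had the lowest pileup ceiling and replicate 2 the highest, and the part of this in the folds was not tested.

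The most even of the leading regions lay on IV from 4705236 to 4705530, where the folds were 8.66, 8.33 and 9.40 and the summits agreed within 29 bp. A region on III from 5172465 to 5172858 had folds of 8.50, 9.33 and 11.9. On II the folds of the region from 8289918 to 8291017 were 7.27, 8.33 and 8.67. The values of these regions differed by no more than 1.40-fold between replicates.

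The least even was on III from 9565876 to 9566248, with folds of 13.2, 24.6 and 6.50 and pileups of 21, 41 and 12 tags. A pair of regions on V, from 15133642 to 15134109 and from 15184157 to 15184410, behaved alike in this respect. Their folds were 13, 18.2 and 6.12, and 7.50, 18.2 and 7.14. Replicate 2 was highest in all 3 regions, each time over an input background of 0.708 tags, the lowest level in that library.

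**Figure D2:**
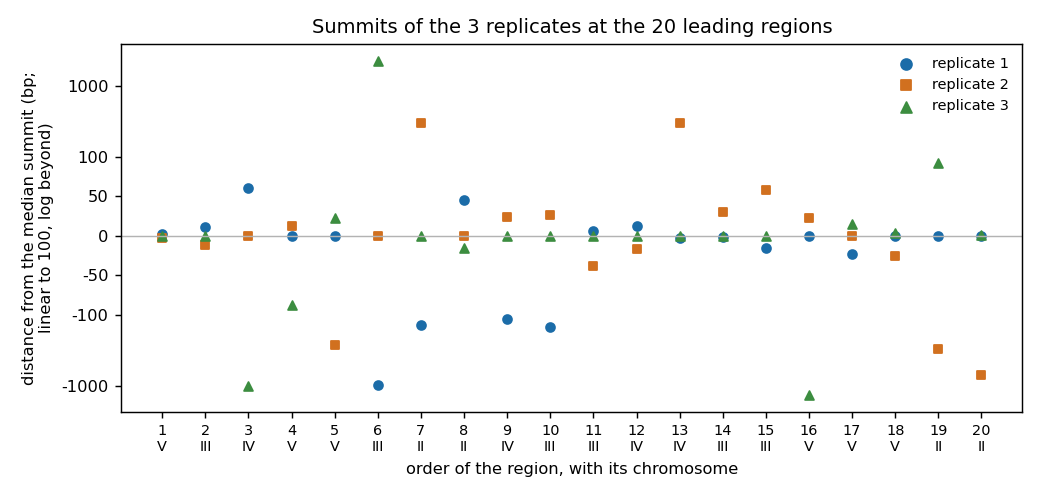
Distance of each replicate's best summit from the median of the 3 summits (bp, linear to 100 and logarithmic beyond) for the 20 leading regions in the same order; each point is 1 replicate. The summits of region 1 lie within 5 bp, while those of regions 3, 6 and 16 are 1051, 3188 and 1345 bp apart.

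Summit positions sorted the shared regions further. The 3 best summits were at most 50 bp apart in 30 of the 103 (29.1%) and in 7 of the 20 leading regions. The median distance was 129 bp over all shared regions and 118 bp over the leading ones. Where each list had a single summit, as in 33 shared regions, the position is that of 1 local maximum. Elsewhere the best summit can fall on different maxima of a wide interval, as in the region on III from 7444312 to 7448157. This was the widest shared region of the centres, 3846 bp with 58 summits over the lists. Its folds were 12.8, 14.9 and 8.13 at summits 3188 bp apart. The widest shared regions of the other chromosomes were 1610 bp on II, 3285 bp on IV and 2076 bp on V, with mean folds of 6.49, 5.23 and 7.60.

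The input signal under the peaks split the regions into groups. Background is given as a multiple of the lowest level the peak caller allows, which is 0.671, 0.708 and 0.798 tags in replicates 1, 2 and 3. In 320 of the 584 regions (54.8%) it was below 2 times that level in every list with a peak, and in 238 (40.8%) it was at 2 times or more in each. All lists share 1 input library, and a region found in 1 list falls in either of these groups by definition. The cut between the groups is low in tags. In replicate 1 an input of 1 tag is 1.49 times the lowest level, and 2 tags are 2.98 times. Of the 320 regions over low input, 19 (5.94%) were shared by all replicates and 276 (86.2%) were found in 1. Of the 238 over high input, 65 (27.3%) were shared and 105 (44.1%) were found in 1. The centres were near the whole series, of which they are a part, in all of this. Over all chromosomes 56.6% of regions lay over low input and 39.5% over high input, 5.77% and 30.8% of these were shared, and 85.9% and 44.3% were found in 1 list. The arms lay further off. There 61.4% of regions lay over low input and 34.5% over high input, and 3.74% and 38.1% of these were shared. Over regions this difference was not tested. The remaining 26 centre regions had low input in some lists and high input in others, and 19 of them were shared.

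**Figure D3:**
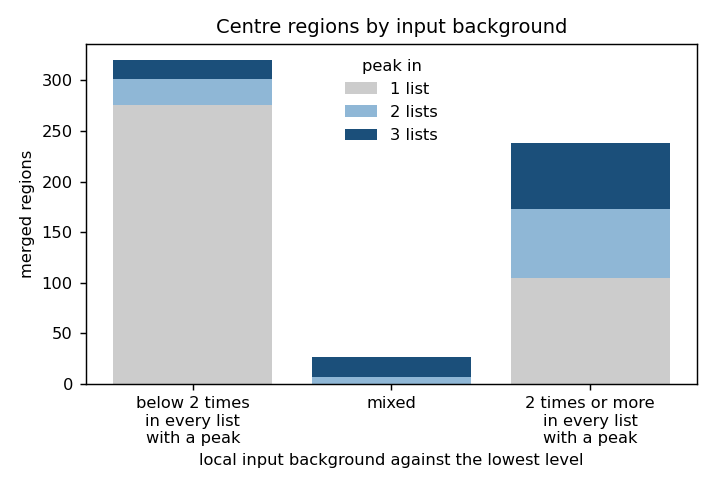
Number of merged centre regions (bars, from 0) by their local input background and by the number of replicates with a peak. Most of the 320 regions over low input, 276, come from 1 list, while 65 of the 238 regions over high input come from all 3.

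Shared regions over high input were the wider ones. Their median width was 580 bp, against 290 bp for the 19 shared regions over low input. Their median pileups were 27, 29 and 29 tags, against 10, 14 and 10. The folds went the other way, with medians of 5.04, 5 and 4.67 over high input and 6, 8.50 and 5.71 over low input. The background is part of the fold, so this difference is in part built into the measure. Replicate 2 gave the highest fold in 11 of the 19 regions over low input and in 17 of the 65 over high input. Of the 20 leading regions, 9 lay over high input, 5 over low input and 6 over either, depending on the list. Among all 103 the counts were 65, 19 and 19. Leading regions over high input included those on V from 12509927 to 12510476 and on IV from 5691139 to 5691511, with mean folds of 10.9 and 10.8. Others began at 10224578 and 5354721 on III, 9048097 on IV and 14755339 on V. Their mean folds were 10.5, 9.76, 9.33 and 7.60. The source of the high input was not tested.

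**Figure D4:**
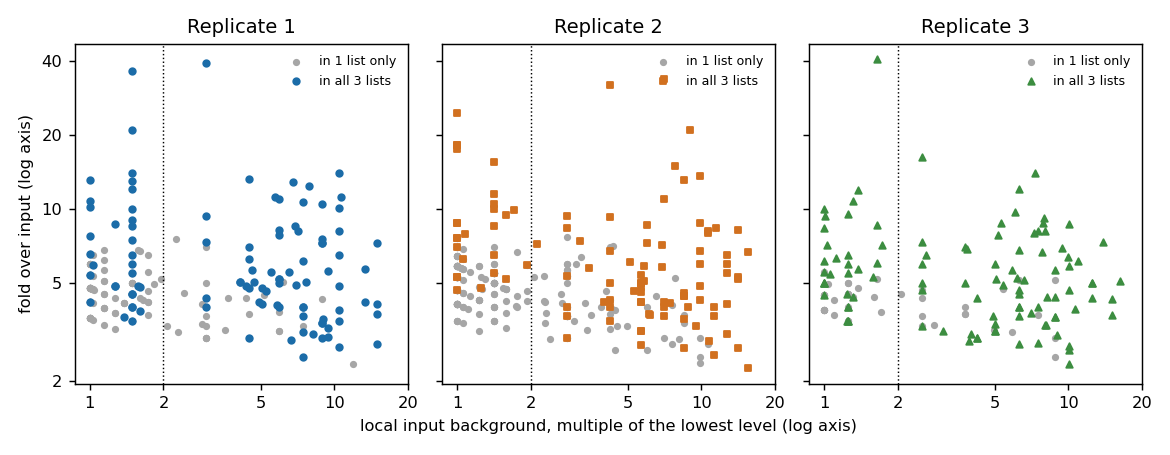
Fold over input against local input background, as a multiple of the lowest level (both axes logarithmic), for the 103 shared regions (coloured) and the regions found in that list only (grey), 1 panel per replicate; the dotted line marks 2 times the lowest level. Regions found in 1 list stay below a fold of 8, and the shared regions reach 39.3, 33.8 and 40.5.

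The 19 shared regions over low input in every list are those whose fold depends least on a raised local input. By this measure 18.4% of the shared centre regions qualified, against 18.2% of the shared regions over all chromosomes and 12.6% of those in the arms. Chromosome II held 7, III and V 5 each, and IV 2. Of these, 11 had a single summit in each list. The strongest was the leading region at 13657284 on V. Next by their smallest fold came the region on II from 11757755 to 11758825, with folds of 10.2, 10 and 8.62, and the unevenly measured regions on III and V at 9565876, 15133642 and 15184157.

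Another 5 regions completed the 10 strongest of this group. The region from 7280539 to 7280828 on II reached folds of 10.8, 6.50 and 6 and lay near the leading region from 7277288 to 7277720, where the folds were 14.0, 15.5 and 7.33. The neighbouring regions on II from 11761326 to 11762102 and from 11756732 to 11757506 had folds of 6, 7.61 and 8.34, and of 4.87, 7.94 and 5.71. The region from 5533619 to 5533903 on III reached 9, 10.5 and 5.01, at summits within 20 bp. The region from 7794814 to 7795189 on V reached 7.78, 5.5 and 5.01.

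These regions rest on few tags. The pileups of the region on III at 5533619 were 17, 20 and 8 tags, and the 95% Poisson interval of the last is 3.45 to 15.8. The other 9 shared regions over low input had folds from 3.5 to 6.58 in replicate 1, from 4.68 to 9.94 in replicate 2 and from 3.52 to 7.14 in replicate 3.

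Shared regions gathered in runs, here 3 or more of them, each no more than 10 kb from the next. There were 10 runs with 42 regions (40.8% of the 103), and 7 of the runs had at least 4. No share in runs is given here for the arms or over all chromosomes. Whether runs are particular to the centres was therefore not tested. When only peaks over low input were kept, 22 shared regions remained, and 18.2% of these lay in runs. Fewer regions also leave fewer neighbours within 10 kb by construction. When neighbours within 10 kb were counted once, the 103 regions came to 64 places, of which 47 held 1 region. In 6 of the 7 larger runs the median input background was at least 2 times the lowest level in every replicate. A wide stretch of signal that the peak caller cut into several intervals cannot be told apart from separate binding sites in these lists.

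The longest run lay on III from 7426283 to 7451771, 25489 bp with 7 shared regions. Its peaks numbered 32, 23 and 14 in replicates 1, 2 and 3 and covered 34.6%, 59.96% and 16.4% of it. It held the widest shared region described above, and the folds of the other 6 ranged from 2.80 to 7.38.

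A second run on III, from 5353079 to 5358510, packed 6 shared regions into 5432 bp with gaps of at most 210 bp. Peaks covered 70.8%, 87.0% and 59.2% of it. Its highest folds were 13.2, 8.12 and 8.80, over median input backgrounds of 8.42, 10.2 and 7.55 times the lowest level.

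On II the run from 8287538 to 8292755 was the most even. Its 4 regions had folds of 6.50 to 8.20 in replicate 1, 6 to 8.33 in replicate 2 and 6.16 to 8.67 in replicate 3, over median backgrounds of 10.4, 12.1 and 9.70 times the lowest level. A shorter run on II, from 5144923 to 5146567, had median folds of 7.06, 4.64 and 4.50. On IV the run from 4416465 to 4425561 had median folds of 4.89, 6.47 and 4.40.

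The run on II from 11756732 to 11762102 was the exception among the larger runs. Its median input background was 1.38, 1.24 and 1.34 times the lowest level, while its median folds were 8.09, 7.78 and 8.48. It held 4 shared regions in 5371 bp, with 5, 7 and 10 peaks and 15, 15 and 30 summits in replicates 1, 2 and 3. Peaks covered 43.9%, 69.2% and 70.8% of it. Replicate 3, which elsewhere among the leading regions was most often the lowest, had the highest median fold and the most peaks in this run. The folds of its region from 11759949 to 11761274 were 12, 7.20 and 10.8.

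Peak density differed between the 4 centres, and the runs carried part of the difference. The centre of III had 16.9, 14.5 and 9.06 peaks per Mb in replicates 1, 2 and 3, the highest of the 4 centres in each replicate. V followed with 12.8, 11.9 and 7.42, then IV with 9.41, 10.3 and 6.75 and II with 9.38, 9.10 and 5.88. Means were 13.5 ± 4.02 on III, 10.7 ± 2.88 on V, 8.82 ± 1.84 on IV and 8.12 ± 1.95 on II (SD, n = 3). With the peaks in runs of at least 4 shared regions left out, a setting chosen after the data were seen, the density on III fell to 8.31 ± 3.27 per Mb (SD, n = 3). That is below the value on V, where no run of at least 4 lay and the density stayed at 10.7. V did hold runs of 3 shared regions, from 10605695 to 10611065 and from 14767934 to 14769717, and these were kept. Leaving peaks out can only lower a density. The runs of at least 4 held 39.3%, 30.2% and 50% of the peaks of the III centre. The order of III and V thus changes with this choice, and the difference between chromosomes was not tested.

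By shared regions per Mb III again came first, but the order of the other chromosomes differed. There were 26 on III, or 3.93 per Mb, 22 on II (3.08 per Mb), 26 on IV (2.88 per Mb) and 29 on V (2.72 per Mb). Counted as places, III had 15 (2.27 per Mb), V 22 (2.07 per Mb), IV 16 (1.77 per Mb) and II 11 (1.54 per Mb). Per Mb this is the order of the mean peak densities with all peaks kept. Long stretches held no shared region at all. The longest were 1703 kb on II, from 5146568 to 6849457, and 1633 kb on IV, from 9048713 to 10681762.

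**Figure D5:**
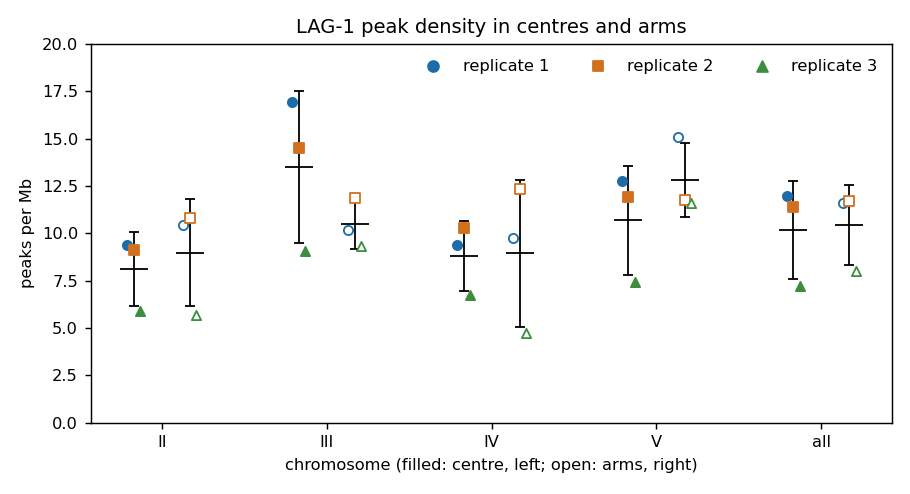
LAG-1 peaks per Mb in the centre (filled, left) and the arms (open, right) of each chromosome and of all 4 together; points are replicates, the horizontal line is their mean and the bar their SD (n = 3). Over all 4 chromosomes centres have 10.2 and arms 10.4 peaks per Mb on average, and the replicate points overlap.

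Centres were compared with the arms of the same chromosomes, the rest of each chromosome up to the end of its last peak. Density differed by less than the spread between replicates. Centres had 11.96, 11.4 and 7.24 peaks per Mb in replicates 1, 2 and 3, and arms had 11.6, 11.7 and 8.02. The mean log2 ratio was -0.05 ± 0.10 (SD, n = 3), and centres were higher in 1 of 3 replicates (exact two-sided sign-flip permutation p = 0.75, adjusted p = 0.938 over 5 such tests). With 3 replicates this test cannot give a p below 0.25. Single chromosomes went different ways. The ratio of centre to arm density averaged 1.28 ± 0.350 on III and 0.833 ± 0.186 on V, 0.923 ± 0.0958 on II and 1.07 ± 0.309 on IV (SD, n = 3), and on each chromosome at least 1 replicate fell on the other side of 1.

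No property of the peaks passed this test either. Median folds were 4.50, 4.71 and 4.37 in centres and 4.79, 4.68 and 4.52 in arms, a mean log2 ratio of -0.04 ± 0.05 (SD, n = 3, exact permutation p = 0.5, adjusted p = 0.938). Median input background was 2.98, 2.31 and 5.38 times the lowest level in centres and 2.98, 1.77 and 6.96 in arms (exact permutation p = 1, adjusted p = 1). The share of peaks over low input was 44.8%, 47.8% and 28.5% in centres and 47.0%, 53.9% and 26.1% in arms (exact permutation p = 0.75, adjusted p = 0.938). The share of peaks in shared regions was lower in centres in all 3 replicates. It was 39%, 29.1% and 69.0%, against 42.1%, 29.7% and 74.3% in arms, a mean difference of -2.99 ± 2.34 percentage points (SD, n = 3, exact permutation p = 0.25, the smallest possible, adjusted p = 0.938). Without replicate 3, and with shared then meaning present in both others, this difference turned to 3.78 points. Each of the 5 differences between centres and arms changed direction in at least 1 alternative setting.

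Replicates agreed moderately on the order of the shared regions. Across the 103 regions, Pearson's r of log2 fold was 0.77 between replicates 1 and 2. It was 0.69 between 1 and 3 and 0.67 between 2 and 3, and Spearman's rho was 0.69, 0.60 and 0.63 in the same order. These describe regions that share 1 input library. The few highest regions added to them, and without the 4 of highest mean fold r was 0.67, 0.56 and 0.54. The log2 fold of a region differed between a pair of replicates with an SD of 0.52, 0.56 and 0.59. Among the 19 regions over low input r was 0.71, 0.52 and 0.47.

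Regions found in 1 list made up most of the total and were low in tags. Replicate 1 alone had 150, replicate 2 alone 189 and replicate 3 alone 42. These were 25.7%, 32.4% and 7.19% of the centre regions, near the 26.2%, 32.5% and 7.49% over all chromosomes. Their median pileups were 8, 9 and 9 tags and their median folds 4.50, 4.68 and 4.13. Low input lay under 80%, 69.3% and 59.5% of them. Of these regions, 20, 30 and 9 lay within 10 kb of a shared region.

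The highest fold among them was 7.67, in replicate 2 on V from 10268572 to 10269113, with 22 tags. Regions of replicate 2 on IV, from 6336774 to 6336902 and from 7974738 to 7974938, had the same fold of 7.61 over 12 tags. The next were a region of replicate 1 on V from 14754500 to 14754589 with a fold of 7.57, 750 bp from a shared region, and one of replicate 2 on III from 7441882 to 7442356 with 7.09, 402 bp from a shared region and inside the longest run. None of the regions found in 1 list reached the fold of the 4 leading shared regions.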

How the data were processed

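LAG-1 ChIP peak lists of 3 replicates were used, with the input only as their control. The authors ran MACS 2.1.1.20160309 on each replicate, per the file headers (effective genome size 90000000 bp, 1 tag per position, the larger library sampled down). The build is ce10 per the submitters' processing notes, with the aligner not given in the sources used here. The deposited pileup is a signal in tags, not scaled between libraries. The deposited fold is a ratio to local input, and the deposited significance is −log10 p and q per summit. Every summit passed the authors' fold of 2.0 and false discovery rate of 0.05.

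Input background was recovered as (pileup + 1) / fold − 1. With it, a Poisson −log10 p came within 0.05 of the deposited p-value for 100% of centre summits. Centres and arms were compared within replicates by an exact sign-flip test, with Benjamini-Hochberg adjustment over 5 tests. Regions are not replicates, so no test runs over them. Intervals cover counting error only and take no account of the pileup ceiling. Named are the 20 leading shared regions, the 10 strongest over low input, runs of at least 4, the widest of each chromosome and the 5 highest found in 1 list. Members and rules were chosen with earlier results of these data known. Python 3.11.15, numpy 2.4.6, pandas 2.3.3 and scipy 1.17.1 were used, and merging was tested on simulated lists. Gene positions and the LAG-1 motif were not run, since no ce10 annotation or sequence was used here.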

Additional observations from a re-analysis of the deposited data

How the results depend on the processing

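The 584 merged regions became 252 with fold of at least 5, 346 with input background below 2 times the lowest level and 329 when neighbours within 10 kb were counted once, and 440 to 545 with 1 replicate left out. The 103 shared regions became 38 at 50% reciprocal overlap, 36 with fold of at least 5, 22 under the background limit, 64 with neighbours counted once and 203 for presence in at least 2 lists. They became 120 to 169 with 1 replicate left out, the most without replicate 3. Mean r of log2 fold, 0.71, became 0.77 at 50% reciprocal overlap, 0.66 with fold of at least 5, 0.43 under the background limit and 0.61 to 0.68 with 1 replicate left out. The share in runs, 40.8%, became 23.7% at 50% reciprocal overlap, 18.2% under the background limit and 47.3% to 58.3% with 1 replicate left out. Stricter thresholds and the background limit leave fewer peaks by construction. The reciprocal rule cannot directly pair the narrowest peaks of replicates 2 and 3, whose fragment lengths differ. Leaving out a replicate also loosens the rule, since shared then means present in both remaining lists, as does presence in at least 2 lists. Other causes were not tested.

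No comparison of centres with arms passed in any setting, which 3 replicates could not allow, and each changed direction in at least 1 setting. Leaving out 1 replicate gave -0.094 to 0.0012 for the log2 density ratio, -0.07 to -0.021 for the log2 fold ratio, -0.19 to 0.19 for the log2 background ratio, -6.99 to 3.78 points for the share in shared regions and -4.17 to 0.103 points for the share over low input. The fold ratio was 0.049 and the share in shared regions 6.65 points higher in centres under the background limit. The background ratio was -0.38 with fold of at least 5, -0.12 with lists of equal length and -0.18 with every summit counted. The share over low input was 3.65, 0.512 and 2.47 points in these settings. The cause was not tested. The other 36 values of these comparisons kept their direction, and 28 values of the counts, the agreement and the share in runs stayed within the limits set. For the counts and the share in runs these limits were wide. Within them the 584 regions became 425 with lists of equal length. The 103 shared regions became 75 with a false discovery rate below 0.001, and the 40.8% in runs became 50.8% without replicate 1.

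The low peaks rest on few tags, and a pileup of 8 tags has a 95% interval of 3.45 to 15.8. Centres and arms were compared within replicates. Between ChIP and input, no paired analysis was possible because the input is 1 sample and entered only as the control of each list.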
